A study of Mus musculus with 6 samples.

Results

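Focal adhesion kinase (FAK) is a tyrosine kinase of integrin adhesions that is also found in the nucleus of squamous carcinoma cells. Here the carbonic anhydrase genes were compared between mouse squamous cell carcinoma (SCC) cells that lack FAK and the same cells with FAK put back. The family was chosen by measured values of this same comparison, with results of these arrays known. The values below are therefore a description, and the number of members past the thresholds of the fit over all genes is given only beside the share of all genes past them, not as a test of the family or of a member. Its 10 members were found by their Ensembl identifiers, and all 10 are among the 17204 genes of the expression table. They are Car1, Car2, Car3, Car4, Car6, Car8, Car9, Car12, Car13 and Car14. The reference annotation (RefSeq, GRCm38.p6) names 16 mouse genes with the stem Car and a number. The other 6, Car5a, Car5b, Car7, Car10, Car11 and Car15, could not be looked up by name, because the annotation does not pair symbols with Ensembl identifiers, and were not analysed here.

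The cells came from chemically induced skin tumors of FVB mice with the genotype K14CreER FAKflox/flox, in which a tamoxifen-activated Cre under a keratinocyte promoter can remove the floxed FAK gene. SCC FAK-/- is 1 clone isolated after that deletion, and SCC FAK-wt is the same clone after retroviral re-expression of wild-type FAK. Both lines were grown untreated in the same medium, and the labels name hygromycin selection for the lines that re-express FAK, so the effects of FAK, transduction and any difference in selection cannot be told apart. Total RNA of 3 biological replicates of each line was hybridized to 6 Affymetrix GeneChip mouse arrays. No animal, tumor or hypoxia treatment is part of the comparison, and since 1 pair of lines was compared, the replicates measure the spread of these lines only. The values are RMA log2 expression, so 1 unit is a doubling of the signal. Array medians lay between 5.90 and 5.97. The identifiers could not be joined to Ptk2, the gene encoding FAK, or to markers of keratinocytes and other cell types, so the labels of the lines were not checked against them.

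Carbonic anhydrases are zinc enzymes that interconvert carbon dioxide with bicarbonate and a proton. They serve pH control, ion transport and gas exchange, and the isoforms differ mainly in where they sit. Car1, Car2, Car3 and Car13 are cytosolic, and Car4 is held on the outer face of the cell membrane by a lipid anchor. Car9, Car12 and Car14 span the membrane with the catalytic domain outside the cell. Car6 is the secreted isoform, found in saliva, and Car8 belongs to the carbonic anhydrase-related proteins, which lack the enzyme activity. Car9 and Car12 are the isoforms best known in solid tumors, where Car9 is induced by hypoxia through hypoxia-inducible factor (HIF) and takes part in acidifying the space around the cells.

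The largest differences between the lines were in 3 genes. These had a log2 fold change of at least 0.5 in size, as did 8.52% of all genes. Car9 and Car12, both tumor-associated and extracellular in their active site, were higher in SCC FAK-wt cells, by 3.23-fold and 1.91-fold. Car6, the secreted isoform, was lower in SCC FAK-wt cells, with a level 2.38-fold higher in SCC FAK-/- cells. The other 7 members differed by at most 0.33 on the log2 scale in either direction. The 3 genes are shown by the sequence in front of their transcription start, since all other values here are numbers. The sequences are from RefSeq, GRCm38.p6, and are the 250 bases before an annotated start, read 5′ to 3′ on the gene's strand. Capitals mark the motifs that were searched on both strands, ACGTG and GCGTG, which are core forms of the hypoxia response element, and TGANTCA, the AP-1 site. The Car9 sequence is chr4:43506776-43507025 on the + strand, the Car12 sequence chr9:66713436-66713685 on the + strand and the Car6 sequence chr4:150201136-150201385 on the - strand.
Car9: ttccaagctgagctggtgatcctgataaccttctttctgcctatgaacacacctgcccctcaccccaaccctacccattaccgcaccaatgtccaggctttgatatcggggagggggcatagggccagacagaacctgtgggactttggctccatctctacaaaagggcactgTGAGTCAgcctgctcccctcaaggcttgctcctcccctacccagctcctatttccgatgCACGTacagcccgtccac
Car12: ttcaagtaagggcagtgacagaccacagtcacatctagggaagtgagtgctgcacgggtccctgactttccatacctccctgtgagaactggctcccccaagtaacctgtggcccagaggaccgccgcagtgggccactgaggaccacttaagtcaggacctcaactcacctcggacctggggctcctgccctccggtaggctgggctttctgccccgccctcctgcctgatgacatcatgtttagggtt
Car6: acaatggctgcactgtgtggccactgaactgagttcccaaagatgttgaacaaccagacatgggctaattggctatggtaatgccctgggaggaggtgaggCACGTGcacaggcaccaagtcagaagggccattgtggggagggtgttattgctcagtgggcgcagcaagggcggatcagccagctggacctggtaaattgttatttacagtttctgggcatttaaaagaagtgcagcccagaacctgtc

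The Car9 sequence held a TGANTCA match at -77 to -71 and an ACGTG match, on the opposite strand, at -18 to -14, counted back from -1, the last base before the start. The Car6 sequence held an ACGTG match on each strand, which overlap in the palindrome CACGTG at -149 to -144. This palindrome is also the E-box, the site of many other factors. None of the motifs was in the Car12 sequence, whose start lies 1390 bases inside the outermost annotated end of the gene. Among all 32851 promoter windows of this length, 16.6% held ACGTG, 28.2% GCGTG and 6.75% TGANTCA on either strand. Windows were present for 5 of the 10 members. In the 2 not shown, Car14 held 1 ACGTG match at -7 to -3 and Car4 held none of the motifs. The Car14 start, like that of Car12, lies inside the outermost annotated end of its gene, by 432 bases. The matches are letters in a window, and no binding was measured.

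Car9, the transmembrane isoform under HIF control, had values of 6.21, 6.67 and 6.01 in SCC FAK-wt and of 4.41, 4.75 and 4.66 in SCC FAK-/- cells. The lines did not overlap, and the lowest SCC FAK-wt array stood 1.26 log2 units above the highest SCC FAK-/- array. The means were 6.30 ± 0.34 (SD, n = 3) and 4.60 ± 0.18 (SD, n = 3), which is a log2 difference of 1.69 (standard error 0.18). Over all 17204 genes, the increase in Car9 ranked 23 from the top.

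Car12, which resembles Car9 in its place in the membrane, was at 5.88, 5.88 and 6.02 in SCC FAK-wt and at 4.99, 4.75 and 5.25 in SCC FAK-/- cells. Every SCC FAK-wt array was above every SCC FAK-/- array, here with a gap of 0.63. The means were 5.93 ± 0.080 (SD, n = 3) and 5.00 ± 0.25 (SD, n = 3), which is a log2 difference of 0.93 (standard error 0.14), which ranked 133 among all increases.

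Car6 went the other way. Its values were 5.35, 5.47 and 4.45 in SCC FAK-wt and 6.37, 6.54 and 6.13 in SCC FAK-/- cells. Again the lines were apart, by 0.66, but SCC FAK-wt replicate 3 was well below the other arrays of its line. The means were 5.09 ± 0.56 (SD, n = 3) and 6.34 ± 0.21 (SD, n = 3), which is a log2 difference of -1.25 (standard error 0.27), which ranked 76 among all decreases. Without SCC FAK-wt replicate 3 it was -0.93.

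**Figure D1:**
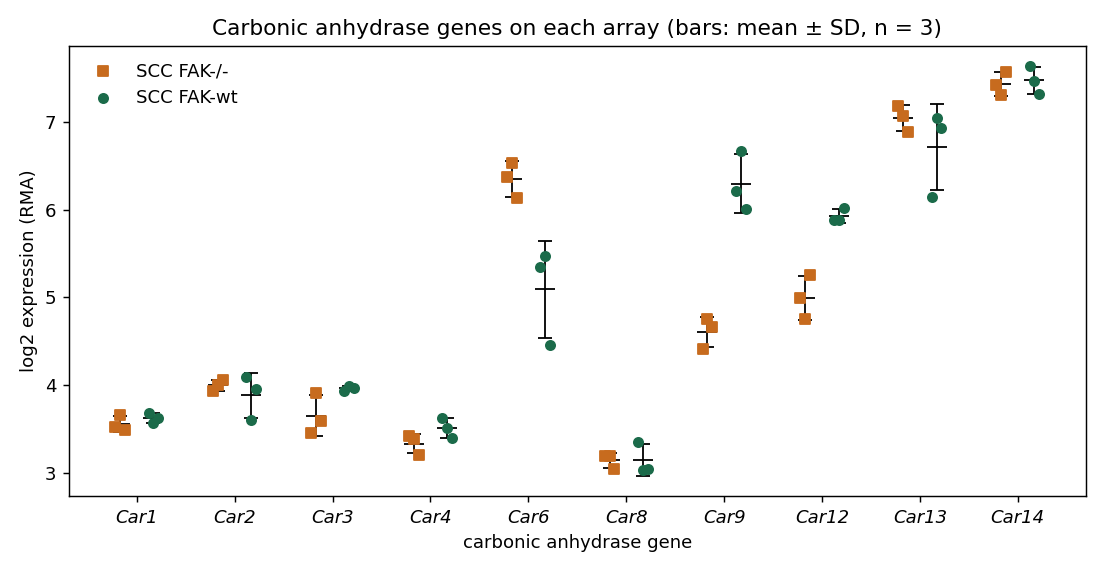
Log2 expression (RMA, vertical axis) of the 10 carbonic anhydrase genes (horizontal axis) on each of the 3 SCC FAK-/- arrays (squares) and 3 SCC FAK-wt arrays (circles), with black bars for the mean ± SD. Car9 and Car12 are higher on all 3 SCC FAK-wt arrays, by means of 6.30 against 4.60 and 5.93 against 5.00, and Car6 is lower on all 3. The means of the other 7 genes differ by at most 0.33. Of these, Car3 is also higher on all 3 SCC FAK-wt arrays, with a gap of 0.03. Heights are not comparable between genes, since each has its own probes.

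Car14, the other membrane-spanning isoform with an extracellular catalytic domain, did not share the pattern of Car9 and Car12. It was at 7.63, 7.47 and 7.32 in SCC FAK-wt and at 7.42, 7.30 and 7.57 in SCC FAK-/- cells. The arrays of the lines were interleaved, and the log2 fold change was 0.04 (standard error 0.12). Its signal was in the upper part of the table, at the 67.3 percentile of mean level. The 3 transmembrane isoforms thus ranged from 0.04 to 1.69.

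Among the cytosolic isoforms, Car13 had the brightest signal relative to all genes, at the 60.1 percentile. It was at 6.15, 7.05 and 6.93 in SCC FAK-wt and at 7.18, 7.06 and 6.89 in SCC FAK-/- cells, a log2 fold change of -0.33 (standard error 0.24). The lines overlapped, and 1 array, SCC FAK-wt replicate 1, was low. Without it the log2 fold change was -0.05.

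Car3, a cytosolic isoform of low activity that is abundant in muscle and fat, was at 3.94, 3.99 and 3.97 in SCC FAK-wt and at 3.45, 3.91 and 3.59 in SCC FAK-/- cells. The lines did not overlap, but the gap was 0.03, and the log2 fold change was 0.31 (standard error 0.13). Car1, an isoform of red blood cells, had a log2 fold change of 0.07 (standard error 0.10), with values from 3.56 to 3.68 in SCC FAK-wt and from 3.48 to 3.66 in SCC FAK-/- cells. Car2, a highly active isoform of many tissues, had one of -0.12 (standard error 0.14), with values from 3.60 to 4.09 and from 3.94 to 4.06. The arrays of the lines overlapped for both genes.

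In the reference annotation, Car13, Car1, Car3 and Car2 follow each other on chromosome 3 with 0 protein-coding genes between neighbors, and these are the 4 cytosolic isoforms measured. Their log2 fold changes were between -0.33 and 0.31, with a median of -0.02. Car14 is on the same chromosome, but 530 protein-coding genes away from Car2. Car8, Car9 and Car6 are all on chromosome 4, with 170 protein-coding genes between Car8 and Car9 and 1005 between Car9 and Car6, so Car9 and Car6, which went in opposite directions, are not neighbors. Car12 is on chromosome 9 and Car4 on chromosome 11.

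Car4, the lipid-anchored isoform, was at 3.62, 3.51 and 3.40 in SCC FAK-wt and at 3.41, 3.38 and 3.21 in SCC FAK-/- cells, a log2 fold change of 0.18 (standard error 0.11). The highest SCC FAK-/- array lay 0.02 above the lowest SCC FAK-wt array. Car8, the related protein without enzyme activity, had a log2 fold change of 0.00 (standard error 0.12), and its values ran from 3.03 to 3.35 in SCC FAK-wt and from 3.04 to 3.19 in SCC FAK-/- cells.

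The members also differed in the strength of their signal, which depends on the probes of each gene and does not rank their transcripts. Car1, Car2, Car3, Car4 and Car8 were between the 13.0 and 24.1 percentiles of mean level over all genes, and Car6, Car9, Car12, Car13 and Car14 were between the 44.1 and 67.3 percentiles. The table holds no call of presence, so whether the 5 dim genes are expressed in these cells cannot be told from it. Differences of dim genes can be understated by array background.

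**Figure D2:**
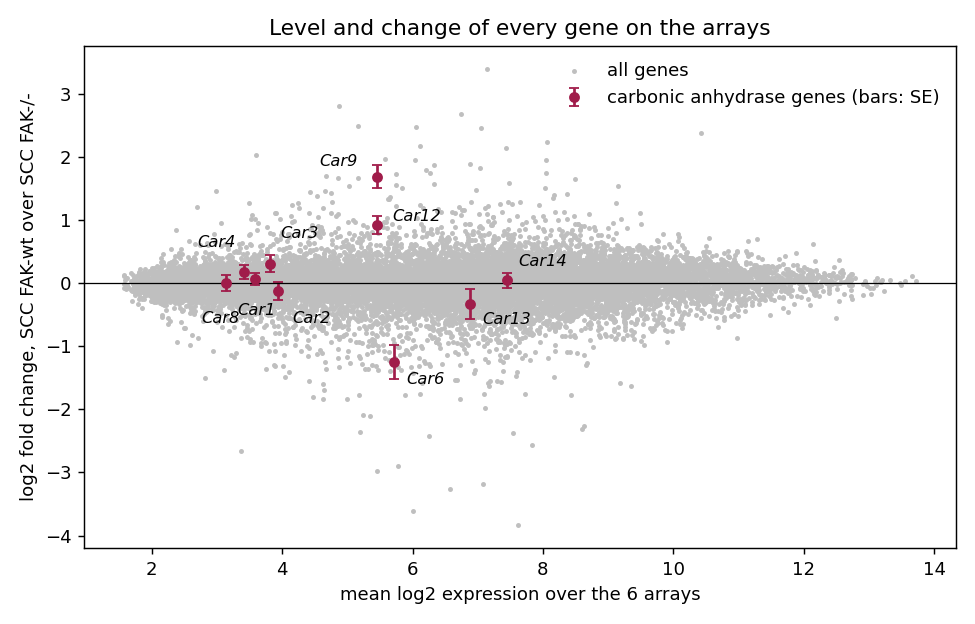
Mean log2 expression over the 6 arrays (horizontal axis) against the log2 fold change of SCC FAK-wt over SCC FAK-/- (vertical axis), with 1 gray point for each of the 17204 genes and the 10 carbonic anhydrase genes in color with the standard error. Car9 (1.69) and Car12 (0.93) lie above most genes of their level and Car6 (-1.25) below, while the other 7 members lie between -0.33 and 0.31.

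In limma's fit over all genes, 2 of the 10 members, Car9 and Car12, lay past the threshold of 0.01 on the unadjusted p on the higher side in SCC FAK-wt cells, as did 3.19% of all genes, and 1 member, Car6, on the lower side, as did 3.66%. Past an unadjusted 0.05 there were 2 members on the higher side (7.76% of all genes) and 1 on the lower side (7.74%). Past a Benjamini-Hochberg adjusted 0.05 there were 2 members, Car9 and Car12, on the higher side (0.820% of all genes) and 0 on the lower side (1.10%). The 2 became 1, Car9, when any of the arrays other than SCC FAK-/- replicate 3 was left out, and 0 without moderated variances. The lines did not overlap in 4 members, Car3, Car6, Car9 and Car12, and in 21.5% of all genes. The contrast that chose the family also gave these counts, so nothing was read from them. The median log2 fold change over the 10 members was 0.06, and it was 0.02 over all genes. By size, without sign, the median was 0.25 for the members and 0.14 for all genes.

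The spread between replicates enters the same comparison and is likewise given as a description. Pooled over the lines, the standard deviation was 0.42 for Car6 and 0.36 for Car13, which put them at the 93.7 and 90.5 percentiles of all genes. Car9 was at the 79.3 percentile with 0.27. For the other 7 members it was between 0.077 and 0.19, and the median over all genes was 0.17. In Car6 and Car13 the spread was mostly among the SCC FAK-wt arrays, at 0.56 and 0.49, against 0.21 and 0.14 among the SCC FAK-/- arrays. Different arrays were low in each, SCC FAK-wt replicate 3 for Car6 and SCC FAK-wt replicate 1 for Car13. In Car12 the order was the reverse, with 0.080 in SCC FAK-wt and 0.25 in SCC FAK-/- cells.

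**Figure D3:**
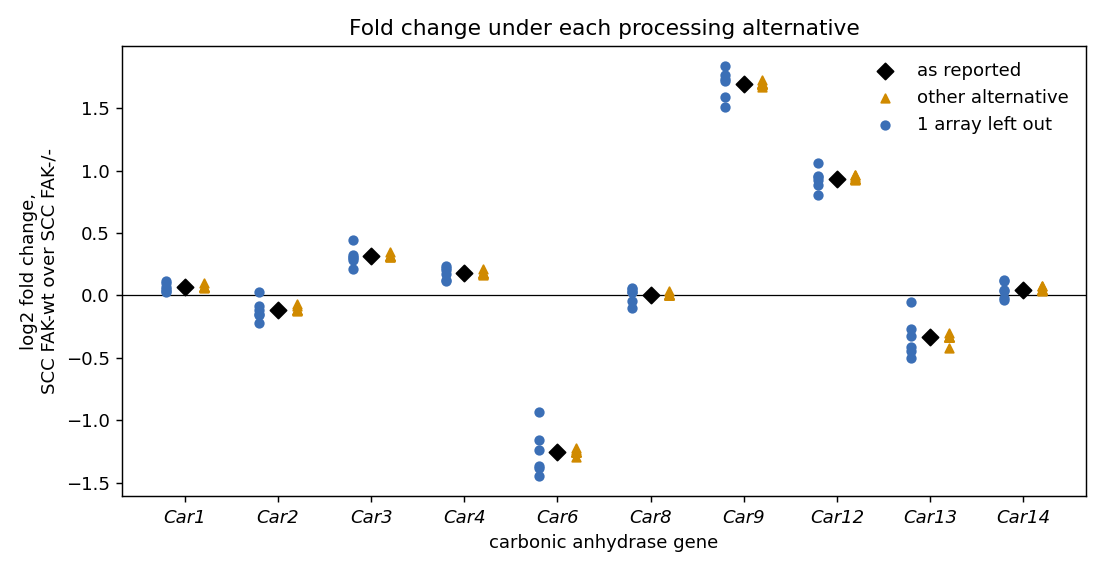
Log2 fold change of SCC FAK-wt over SCC FAK-/- (vertical axis) for each carbonic anhydrase gene (horizontal axis) as reported (diamonds), with each of the 6 arrays left out in turn (circles) and under the other alternatives (triangles). Car9 stays between 1.51 and 1.83 and Car12 between 0.81 and 1.06 with an array left out, Car6 between -1.44 and -0.93, and Car2, Car8 and Car14 change sign in at least 1 of these fits.

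The pattern most like that of Car9, by Euclidean distance between log2 values centered gene by gene on their mean, over 6 arrays, was that of ENSMUSG00000063011, at a distance of 0.48. It was at 8.93 in SCC FAK-wt and 7.17 in SCC FAK-/- cells on average. The next was ENSMUSG00000022309, at a distance of 0.49. For Car6 the nearest were ENSMUSG00000026637, at 0.24, with means of 6.51 and 7.71, and ENSMUSG00000040596, at 0.37. The identifiers could not be named here. With Pearson correlation in place of the distance, 0 of the 5 nearest genes of Car9 and 1 of the 5 nearest of Car6, ENSMUSG00000026637, were the same, so the neighbors depend on the measure. The table lists Car9 as ENSMUSG00000028463, Car12 as ENSMUSG00000032373 and Car6 as ENSMUSG00000028972.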

How the data were processed

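RNA of 3 SCC FAK-wt and 3 SCC FAK-/- samples was measured on Affymetrix GeneChip mouse arrays. The deposited values are log2 expression, made by the authors with RMA (affy package), which gave 1 normalized summary per array for each Ensembl gene. The log2 scale was taken from the range of the values. The version, the probe mapping and the variant of background correction are not given in the sources used here, and the last affects dim genes. Arrays have no read depth, and 3 arrays per line limit the precision.

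All 17204 genes were fitted with limma 3.58.1 in R 4.3.3 (lmFit, eBayes, two-sided), with line as the only term and Benjamini-Hochberg adjustment over all genes. Log2 fold changes are SCC FAK-wt minus SCC FAK-/-, and standard errors are moderated. Genes were called at an unadjusted p under 0.01, the threshold in the study's methods, and at an adjusted p under 0.05. With 3 arrays in each line, 0.1 is the smallest two-sided p that exact permutation could give. The fit was also run on simulated data with normal noise and known shifts. Such data meet its assumptions, so they do not test the calls on these arrays. The rule for named genes was every member, with all 6 values where the log2 fold change was at least 0.5 in size, and the genes nearest in pattern to the members with the largest increase and decrease. Members and lists were chosen with earlier results of these data known, and the motifs and the comparison of promoters after the values were seen. The 14 planned lists (114 entries), of pH regulation, bicarbonate transport, hypoxia and cell types and the targeted gene, could not be tested, since 0 of 17204 identifiers matched the gene table. Alternatives changed the moderation, the scaling between arrays, array weights, a filter on dim genes, a replicate block and the arrays used.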

Additional observations from a re-analysis of the deposited data

How the results depend on the processing

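The log2 fold changes of Car9, Car12 and Car6 kept their direction under all 14 alternatives, but only the 3 further scalings could have reversed it. Changes of moderation, the replicate block and the filter on dim genes leave these estimates as they are. Since the lines did not overlap in these genes, leaving out or weighting arrays cannot reverse the sign. With 1 array left out the log2 fold changes of Car9, Car12 and Car6 were 1.51 to 1.83, 0.81 to 1.06 and -1.44 to -0.93. Under the other alternatives, which include the 3 further scalings, they were 1.67 to 1.72, 0.93 to 0.97 and -1.30 to -1.22. Members called higher at an unadjusted p under 0.01 (2) numbered 2 to 3 with an array left out, the 3 with Car3 added without SCC FAK-/- replicate 2, and members called lower (1) numbered 1 in each of these fits. At an adjusted p under 0.05, 1 to 2 members were called higher and 0 lower with an array left out. With no moderation 0 members were called lower at the unadjusted and 0 higher at the adjusted threshold; the cause was not tested. Trend and robust moderation and the replicate block each called 1 member, Car6, lower at the adjusted threshold.

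Over all genes, the counts at an unadjusted p under 0.01 were 329 to 481 higher and 464 to 538 lower with an array left out, the 329 without SCC FAK-/- replicate 2. With no moderation these counts were 437 higher and 423 lower. At an adjusted p under 0.05 they were 44 to 77 higher and 64 to 121 lower with an array left out, 247 and 302 with trend and robust moderation, 14 and 25 with no moderation and 69 and 91 with the replicate block. Arrays with the same replicate number did not deviate together from the means of their lines (r across genes -0.034 to 0.028), and the numbers were not taken as pairs. The filter on dim genes removed Car1, Car2, Car3, Car4 and Car8, which then have no value. The alternatives for the planned lists were not run, since no list could be matched.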
